A study of Schizosaccharomyces pombe with 4 samples.

Results

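U2 is the small nuclear RNA that, with its proteins, binds the intron branch site during splicing. The reads described here were those on chromosome II of the deposited records that named LSR1, the U2 gene of the budding yeast Saccharomyces cerevisiae, alone or with another feature. LSR1 is 1 of 7905 feature names in the records. The name stood on 5134 of the 273840 mapped reads of Seb1-HTP library 1 and on 6260 of the 243591 of Seb1-HTP library 2. Of these, 4612 and 5846 named LSR1 alone, and 522 and 410 also named its neighbour SWC5. It was named by 3 of 4654 reads in untagged control 1 and by 0 of 45491 in untagged control 2.

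The libraries come from CRAC, in which RNA is cross-linked to protein by UV light, the tagged protein is purified, and cDNA of the attached RNA is sequenced. Fission yeast (Schizosaccharomyces pombe) grew exponentially at 30 °C in YES medium and was irradiated for 3 minutes. All strains were of mating type h+ with the alleles ade6-M216 and leu1-32 and with ura4-delta_18 and his3delta_1. The strain of the 2 Seb1-HTP libraries also carried Seb1-HTP::KAN, which adds a purification tag to Seb1, the fission yeast relative of the budding yeast RNA-binding protein Nrd1. The 2 controls were the untagged parental strain. The series design calls the 2 libraries of a strain biological replicates.

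U2 pairs through a short stretch near its 5′ end with the branch site of the intron. This stretch reads GUAGUA, and it lies in the part of U2 that is strongly conserved between species. UGUA is a motif that has been linked to Seb1 binding. The files place reads of the fission yeast libraries on budding yeast positions and hold no sequence, so the RNA that these cells make is shown here first. It is snu2 of S. pombe in RefSeq (ASM294v3, I:959370-959556, minus strand), 187 nt, printed as DNA 5′ to 3′ with the stretch that pairs with the branch site in capitals at bases 34 to 39:
snu2: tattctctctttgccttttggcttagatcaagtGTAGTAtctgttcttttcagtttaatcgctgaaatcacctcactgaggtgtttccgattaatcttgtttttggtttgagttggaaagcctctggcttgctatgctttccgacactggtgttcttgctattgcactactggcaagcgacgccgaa

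GTAGTA occurs 1 time in snu2 and TGTA 1 time, at bases 33 to 36, so the motifs overlap, and neither occurs on the other strand. GTAGTA is found on either strand in 8.79% and TGTA in 80.3% of 67228 genome stretches of 187 nt. A match of letters is a description, not a site. The S. cerevisiae sequence of LSR1 was not used here, so which snu2 base stands at which LSR1 position was not read from an alignment. Positions below are S. cerevisiae positions on chromosome II as the files give them.

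By reads, U2 made up a few percent of the named reads of each Seb1-HTP library and was nearly or wholly missing from those of the controls. LSR1 was named by 1.92% of named reads in Seb1-HTP 1 (95% Wilson interval 1.86 to 1.97) and by 2.70% (2.64 to 2.77) in Seb1-HTP 2. Control 1 had 0.0655% (0.0223 to 0.192), and 0 reads in control 2 allow a share of up to 0.00662%. Both Seb1-HTP libraries were above both controls. The means were 2.31% ± 0.556 (SD, n = 2) with Seb1-HTP and 0.0328% ± 0.0463 (SD, n = 2) without, a gap larger than the spread between replicates (exact two-sided permutation p = 0.33, the smallest that 2 against 2 libraries allow). At the Seb1-HTP shares, control 1 would hold 88 to 124 reads of U2, where 3 were found, and control 2 would hold 868 to 1225, where 0 were found. By distinct intervals, each counted once, the gap was smaller. U2 held 1.22% (1.06 to 1.404) of the named intervals in Seb1-HTP 1 and 0.828% (0.742 to 0.925) in Seb1-HTP 2, beside 3 of 967 in control 1 (0.310%, 0.106 to 0.908) and 0 of 3709 in control 2. The intervals of Seb1-HTP 2 and control 1 overlapped, and the means were 1.02% ± 0.277 and 0.155% ± 0.219 (SD, n = 2 each).

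The test across all features did not call this difference. On reads that name a single feature, edgeR's quasi-likelihood test put LSR1 higher with Seb1-HTP by 6.23 on the log2 scale (SE 2.60), with an adjusted p of 0.522. The median over the 559 features tested was 4.94, and 438 of them had 0 reads in both controls. This test called 0% of the 559 features in either direction, with 4 at an unadjusted p under 0.05. When a read was counted for every feature it names, edgeR called LSR1 higher by 6.40 (SE 1.15, adjusted p = 3.90e-06), and 0.579% of 1208 features were called higher and 0.248% lower. DESeq2 called LSR1 alone, 0.179% of the 559 (log2 fold change 9.07, adjusted p = 0.00339). Without control 1, edgeR called 1 feature, 0.18% of 556, which was LSR1 (adjusted p = 0.0119). On distinct intervals, edgeR gave LSR1 a log2 difference of 2.85 (SE 1.47, adjusted p = 0.313) and called 0 of 313 features. Without Seb1-HTP 1 it called 21.2% of 438 features higher, and LSR1 was not among them (adjusted p = 0.169).

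The 3 reads of control 1 were 3 intervals that all began at 681832 and ended at 681795, 681797 and 681800. Each of these intervals was also present in both Seb1-HTP libraries. The interval ending at 681795 was the most read one there, with 894 and 1480 reads. The interval ending at 681797 held 279 and 291 reads, and that ending at 681800 held 224 and 3. The control reads thus lay on intervals that the Seb1-HTP libraries also held, and whether they came from the control culture was not tested.

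Nearly all Seb1-HTP reads placed on U2 lay in 1 short block at the 5′ end of the gene and on its strand. Placement is by likeness to S. cerevisiae, so where reads can lie along U2 also depends on that likeness. Whether this set the block or its edges was not tested. The gene runs on the minus strand, so a read starts (5′ end) at the high coordinate of its interval and ends (3′ end) at the low one. In Seb1-HTP 1 all 5134 reads were on the minus strand, and in Seb1-HTP 2 it was 6255 of 6260. The block, defined as the run of bases with at least 20 reads in either library, reached from 681788 to 681859, or 72 nt. It was touched by 99.96% and 99.3% of minus-strand reads. Within it, 15 bases from 681818 to 681832 were each covered by at least 90% of the reads in both libraries. The coverage of the libraries followed the same course (Pearson r = 0.995 and Spearman rho = 0.992 across 76 neighbouring bases, which share reads and are not independent).

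**Figure D1:**
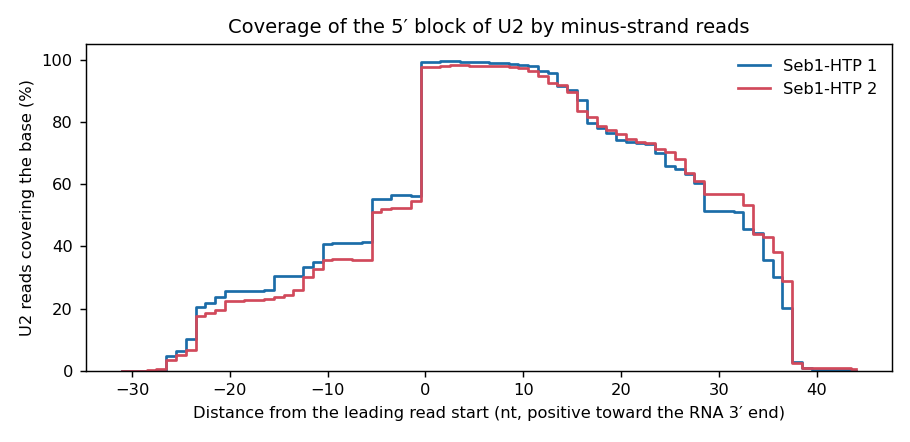
Share of minus-strand U2 reads (y axis, %) that cover each base of the 5′ block, against the distance in nt from the leading read start (x axis, 0 at 681832, positive toward the 3′ end of the RNA), with 1 line for each Seb1-HTP library. Both lines step up at 0 to over 97% and stay at or above 90% over 15 bases.

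To relate this block to snu2 without an alignment, snu2 was laid ungapped on the LSR1 positions in 9 registers, with its base 1 at each position from 681863, the highest base that any read reached, to 681855. GTAGTA then fell between 681817 and 681830. In all 9 registers it lay inside the most read interval, 681795 to 681832. This follows from the registers, which were chosen after the data were seen, and is no result about where GTAGTA lies. The shares of spanning reads likewise restate the coverage of these bases. Reads that span it whole made up 90.2% to 98.8% of the minus-strand reads in Seb1-HTP 1 and 89.7% to 97.5% in Seb1-HTP 2, depending on the register. As distinct intervals these were 65.6% to 84.4% and 58.8% to 71.7%. Which register holds was not tested, and a gap would move these positions. In the lowest register, with base 1 at 681855, the base 681856 lies outside snu2. It was covered by 522 reads in Seb1-HTP 1 and 410 in Seb1-HTP 2.

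A single read start held over 40% of the reads. Position 681832 opened 2197 of 5134 reads in Seb1-HTP 1 (42.8%, 41.4 to 44.2) and 2677 of 6255 minus-strand reads in Seb1-HTP 2 (42.8%, 41.6 to 44.03). The next start, 681837, lay 5 nt upstream and held 13.6% (12.7 to 14.5) and 15.6% (14.7 to 16.5). The start at 681855, close to the 5′ edge of the block, held 10.2% (9.43 to 11.1) and 10.9% (10.2 to 11.7). The start at 681842 held 5.98% (5.36 to 6.66) in Seb1-HTP 1 and 2.85% (2.46 to 3.29) in Seb1-HTP 2. The intervals of the libraries overlapped at 681832 and 681855 and did not overlap at 681837 and 681842. Other starts were uneven: 681833, next to the leading one, had 0 reads in Seb1-HTP 1 and 157 (2.51%) in Seb1-HTP 2, and 681847 had 4.42% and 0.799%. By distinct intervals, 681832 led in Seb1-HTP 1, with 22 intervals, and 681855 in Seb1-HTP 2, with 22 beside 21 at 681832. Across 37 starts in the block the libraries had a Pearson r of 0.987 and a Spearman rho of 0.705.

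By reads, no end held as large a share as the leading start. By reads, the end at 681795 was the most used in both libraries, with 17.4% (16.4 to 18.5) and 26.2% (25.1 to 27.3) of reads. The end at 681796 held 9.88% and 9.46%. By distinct intervals the order was different, with 2 and 7 intervals at 681795 and 10 and 17 at 681811, the most in each library. Other ends were high by reads in 1 library only. The end at 681798 held 8.51% in Seb1-HTP 1 and 0.767% in Seb1-HTP 2, whereas 681799, 1 nt away, held 1.42% and 9.48%. Likewise, 681816 held 7.36% and 2.01%, and 681817 held 3.19% and 6.20%. Across 49 ends the Pearson r between the libraries was 0.792 (Spearman rho 0.840).

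The pairs of ends 1 nt apart differ by the same 1 nt as the most common read length of the libraries. In Seb1-HTP 1 this length was 40 nt, with 18.3% of the other named reads and 34.9% of U2 reads. In Seb1-HTP 2 the most common length was 39 nt, with 22.0% of other named reads and 32.9% of U2 reads. The intervals 681798 to 681837 (40 nt, 434 reads in Seb1-HTP 1 and 0 in Seb1-HTP 2) and 681799 to 681837 (39 nt, 69 and 581 reads) share a start and differ by this length. So do 681816 to 681855 (360 and 56 reads) and 681817 to 681855 (25 and 336 reads). Of the U2 reads that did not begin at 681832, 60.3% in Seb1-HTP 1 and 54.8% in Seb1-HTP 2 had exactly the most common length. Of those that did, only 1.09% and 3.55% had it. Their median lengths were 37 and 38 nt, and 73.4% and 87.7% of them ended between 681795 and 681797. Reads from the leading start with ends at 681795 to 681797 were thus found in both libraries and were shorter than the most common length. The base next to these ends, 681794, was itself substituted inside reads, in 42.6% of 47 in Seb1-HTP 1 and 98.4% of 61 in Seb1-HTP 2. Whether this affected where the ends were placed was not tested. Whether ends at the most common length mark the end of the RNA or of the sequenced cycles was not tested.

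**Figure D2:**
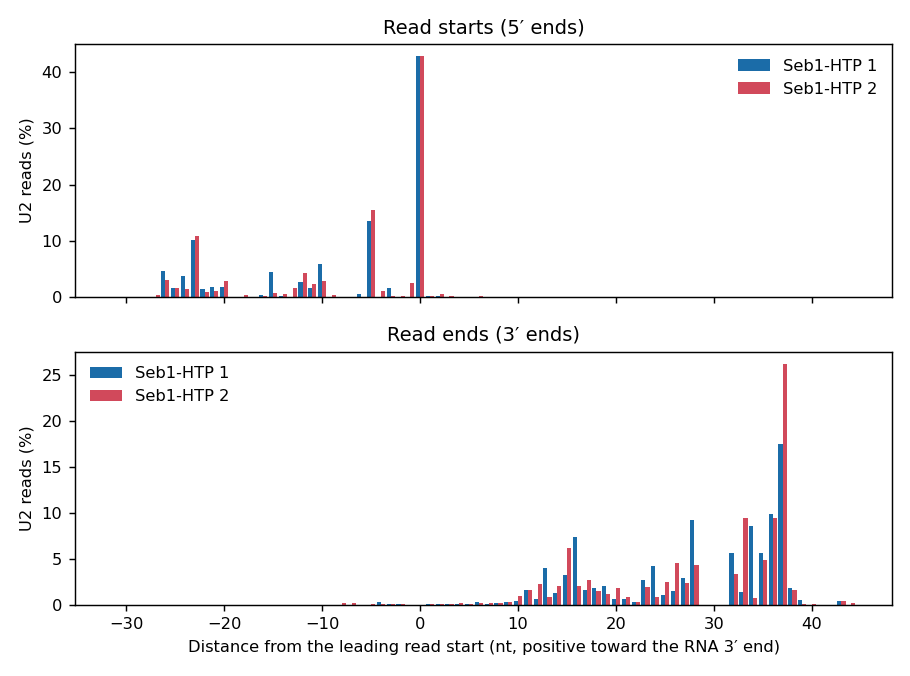
Share of minus-strand U2 reads (y axes, %) that start (upper panel) and end (lower panel) at each base, against the distance in nt from the leading start (x axis, 0 at 681832), with 1 bar for each Seb1-HTP library. The leading start at 0 holds 42.8% of reads in each library, and several of the higher ends are 1 nt apart between the libraries.

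U2 reads were shorter and narrower in length than the other named reads as a pool, though not than every other feature. The median was 38 nt in both Seb1-HTP libraries, against 56 nt and 46 nt over the other named reads of the same libraries. Reads of 35 to 49 nt were 82.4% (81.3 to 83.4) and 88.1% (87.3 to 88.9) of U2 reads and 32.2% and 39.2% of other named reads. Reads of 50 nt or more were 1.75% (1.43 to 2.15) and 1.31% (1.06 to 1.62) of U2 reads, against 60.6% and 45.2%. For 18S rRNA this longest class held 59.9% and 36.8%, and for 5.8S rRNA 66.3% and 52.2%. Reads of 25 to 34 nt were 12.1% and 6.05% of U2 reads, and those of 17 to 24 nt were 3.74% and 4.52%. As distinct intervals the U2 median was 34.5 and 37 nt, and 38 nt over other features in both libraries, so most of the gap in the median was one of reads and not of intervals. The class of 50 nt or more stayed apart, at 1.04% and 7.64% of U2 intervals against 21.6% and 20.9%. Nearly all U2 reads lay in the 5′ block of 72 nt, where placement rests on likeness between the yeasts. Whether that likeness limited the length of U2 reads in the records, more than that of other features, was not tested. The lengths thus describe placed reads and not the fragments of U2 in the cells. Reads of 1 RNA in 1 library are no replicates, and these differences were not tested.

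**Figure D3:**
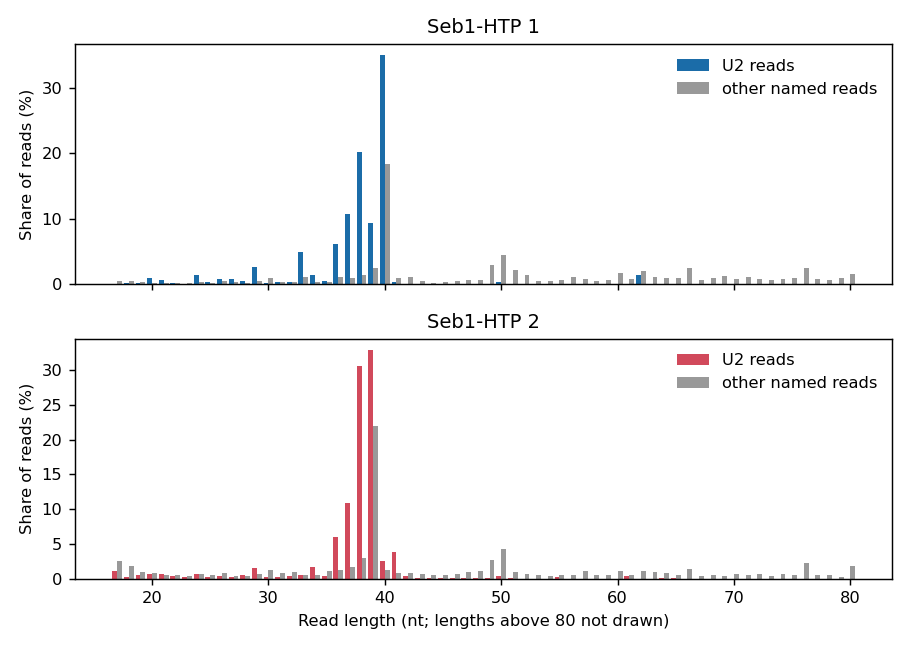
Share of reads (y axes, %) at each read length (x axis, nt, up to 80) for U2 reads (coloured) and all other named reads (grey) in Seb1-HTP 1 (upper panel) and Seb1-HTP 2 (lower panel). The highest bars are at 40 nt in Seb1-HTP 1 and at 39 nt in Seb1-HTP 2 for both kinds of read, and few U2 reads reach 50 nt.

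The U2 reads stood for few different fragments. There were 192 distinct intervals in Seb1-HTP 1 and 314 in Seb1-HTP 2, or 26.7 and 19.9 reads for each, beside 16.9 and 5.99 over other named reads. For 5.8S rRNA it was 39.2 and 18.3, and for 18S rRNA 14.0 and 7.67. The 10 most read intervals held 66.2% and 64.3% of U2 reads, while 66 and 135 intervals had a single read. Of the intervals, 127 were found in both libraries, which was 66.1% of those in Seb1-HTP 1 and 40.4% of those in Seb1-HTP 2. They held 84.1% and 86.7% of the reads. Seb1-HTP 1 had the fewer intervals, but U2 made up the larger share of its named intervals (1.22% against 0.828%), the reverse of their order in reads.

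Substitutions fell on few bases, nearly always the same ones. A substitution was recorded in 90.1% (89.2 to 90.9) of U2 reads in Seb1-HTP 1 and 83.6% (82.7 to 84.5) in Seb1-HTP 2, beside 94.5% and 90.5% of other named reads. Of 65 bases with at least 100 reads in both libraries, 58 had a rate under 5% in both, with medians of 0.646% and 0.377%. The base at 681808 was substituted in 98.0% of 3600 reads and 99.4% of 4456 reads. At 681802 it was 95.9% and 98.5%, at 681803 96.0% and 98.5%, and at 681804 88.6% and 97.3%. Near the 5′ edge, 681858 was substituted in 97.1% of 242 and 95.9% of 217 reads, and it was the first base of 240 and 189 of these. At 681794, past the leading end, the libraries differed, with 31.4% (24.3 to 39.5) of 140 and 91.3% (85.8 to 94.7) of 160 reads, of which 93 and 99 ended on this base.

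Distinct intervals had high rates at these bases too, with 57 of 60 and 92 of 97 intervals for 681808 and 91.7% and 92.7% of intervals for 681802. The files do not give the base that was read, and whether these are bases at which U2 differs between the yeasts was not tested. Among reads that cover 681802, 681803, 681804 and 681808, 87.9% of 2628 in Seb1-HTP 1 and 95.9% of 3550 in Seb1-HTP 2 had all 4 substituted, and 11.8% and 3.94% had 3. None had fewer than 2. The 0 reads with no substitution at the 4 bases allow a share of up to 0.114% and 0.0845%. The control 1 reads covered the same 4 bases, with 4, 4 and 3 of them substituted.

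The rate at 681804 depended on where the read ended. Inside reads it was 98.1% (97.5 to 98.6) and 99.4% (99.1 to 99.6). As the last base it was 35.9% (31.7 to 40.3) of 474 reads and 69.8% (64.0 to 75.0) of 268. The last base at 681808 showed no such drop, with 98.2% of 219 and 98.0% of 51 reads. Few reads ended between 681804 and 681800: at 681802 and 681803 together there was 1 such read in Seb1-HTP 1 and 0 in Seb1-HTP 2, beside 474 and 268 at 681804.

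Another base, 681828, was substituted at a middle rate in both libraries. It lies within the 15 bases covered by nearly all reads, 4 nt downstream of the leading start. Seb1-HTP 1 had it in 622 of 5098 reads, or 12.2% (11.3 to 13.1), and Seb1-HTP 2 in 380 of 6138, or 6.19% (5.62 to 6.82). As distinct intervals it was 15.0% and 11.3%. It varied with the read start. Among reads that began at 681832 it was 2.41% and 1.23%, and among those with other starts 19.6% (18.2 to 21.1) and 10.03% (9.07 to 11.1). Reads from 681852 had it in 100% of 96 and 13.1% of 183, reads from 681857 in 97.6% of 82 and 2.13% of 94, and reads from 681855 in 40.9% of 523 and 19.7% of 666. Reads from 681842 went the other way, with 0.977% of 307 and 38.2% of 178. By reads, the rate at 1 start thus often differed between the libraries, while the leading start was low in both. By intervals that held at least 1 such read, the order was reversed. At the leading start these were 14 of 22 and 10 of 21, and at other starts 60 of 151 and 55 of 219. An interval with more reads has more chances to hold 1 such read. In 3 of the 9 registers above, 681828 fell within GTAGTA, and in the others it lay at most 6 nt from it. These counts follow from the registers chosen.

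Reverse transcriptase often skips a base at a cross-link, so CRAC reads are commonly searched for deletions, and on U2 these were rare in 1 library and not in the other. They were recorded in 0.740% (0.540 to 1.01) of U2 reads in Seb1-HTP 1 and in 8.37% (7.71 to 9.08) in Seb1-HTP 2. Other named reads had 13.3% and 11.4%, 18S rRNA 15.9% and 12.4%, and 5.8S rRNA 10.1% and 12.9%. The U2 share was thus below each of these in both libraries by reads. Deletions were also recorded without the tag. In controls 1 and 2 they were in 44.6% and 44.1% of other named reads. For 5.8S rRNA it was 36.7% and 13.0%, and for 18S rRNA 2.19% and 7.37%. A deletion by itself thus does not mark a read as cross-linked to Seb1. By distinct intervals it was 5.21% and 13.1% for U2 and 10.8% and 8.58% for other features, so U2 was lower in Seb1-HTP 1 and higher in Seb1-HTP 2.

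By the rate at single bases, deletions reached 0.3% of the covering reads at 3 places in Seb1-HTP 2 and at none in Seb1-HTP 1, where the highest was 0.257%. A pair of neighbouring bases, 681830 and 681831, was deleted in 241 reads, 238 of them at both bases. This was 3.96% (3.50 to 4.48) of the reads that span the pair. They came from 11 different read starts, and 32 of the 229 spanning intervals (14.0%) held at least 1 such read. By the most read record of each interval, the rate was 8.30% at 681830 and 8.44% at 681831. In Seb1-HTP 1 the same pair was deleted in 12 reads from 2 starts (0.236%, 0.135 to 0.412). Of reads from the leading start, for which the pair is the second and the third base, 0 of 2197 and 0 of 2677 had it. Only 1 base would lie before such a deletion, and whether it can be recorded there was not tested. The upper limits of 0.137% and 0.112% take in counting error alone. A second pair, 681846 and 681847, had a deletion in 10.2% (8.71 to 11.8) of 1435 spanning reads in Seb1-HTP 2 and in 0.301% (0.117 to 0.770) of 1331 in Seb1-HTP 1. Of the 146 such reads in Seb1-HTP 2, 99 began at 681855. At least 1 such read was held by 18 of 123 spanning intervals in Seb1-HTP 2 and by 3 of 84 in Seb1-HTP 1. With each interval counted once by its most read record, Seb1-HTP 2 had 1.48% at 681846 and 4.62% at 681847. The stretch from 681821 to 681824 had one in 1.81% (1.496 to 2.18) of spanning reads in Seb1-HTP 2 and in 0 of 4936 in Seb1-HTP 1, which allows up to 0.0608%. In Seb1-HTP 2, 12 of 205 intervals that span the stretch held at least 1 such read. These 107 reads came from 4 starts, with 50 from 681852. By the most read record of each interval, the rates in the stretch were 0.435% to 0.926%. TGTA of snu2 lay on or at most 7 nt from the pair at 681830 in the 9 registers, and touched it in 2. These counts, too, follow from the registers chosen.

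**Figure D4:**
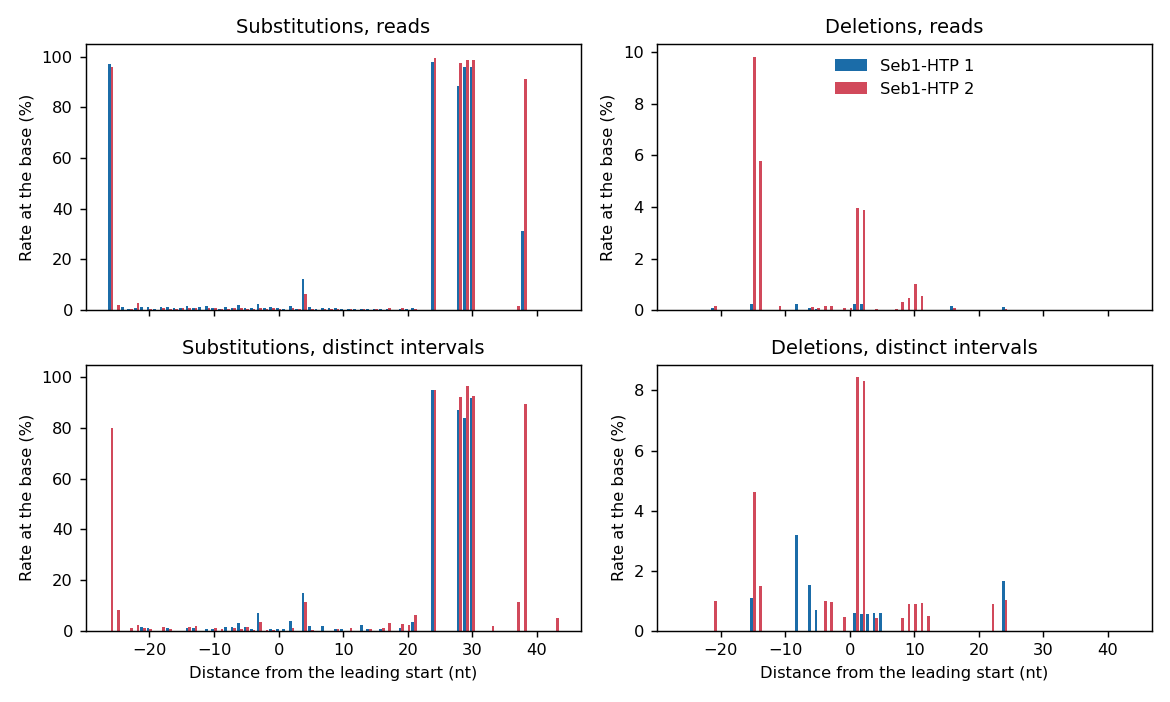
Rate of substitutions (left) and deletions (right) at each base of the 5′ block (y axes, %; the 2 sides differ in scale), by reads (upper panels, bases with at least 100 reads) and by distinct intervals (lower panels, at least 20), against the distance from the leading start in nt, with 1 bar for each Seb1-HTP library. Substitutions are near 100% at the same bases in both libraries, whereas the highest deletion rates, up to 9.83%, are in Seb1-HTP 2.

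Away from the 5′ block, U2 reads were few and mostly in Seb1-HTP 2. Below 681788 there were 2 reads in Seb1-HTP 1 and 48 in Seb1-HTP 2, or 7.46 and 207 reads per 1000000 named reads (RPM), with 0 in the controls. The named positions reached over 1175 nt in Seb1-HTP 2, from 680689 to 681863, which is longer than the 187 nt of snu2. Of the 48 reads, 20 lay between 680689 and 680758, at the far end of LSR1. The 48 reads came from 43 distinct intervals, and 11 of them carried no substitution, and the mean was 2.02 substitutions a read. Where these reads came from was not tested. The 5 plus-strand reads of Seb1-HTP 2 were 3 from 681809 to 681851 and 2 elsewhere.

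Reads are placed by likeness to S. cerevisiae, so how many an RNA gets here also depends on that likeness, and levels of different RNAs are not compared. The other spliceosomal RNAs had few reads in the Seb1-HTP libraries. U1 (snR19), which pairs with the 5′ splice site, had 1 and 14 reads, and U4 (snR14), which holds U6 in the tri-snRNP, had 0 and 6. U6 (snR6), part of the catalytic core, had 0 and 11, and the U5 forms snR7-L and snR7-S, which contact the exons, had 1 and 40, and 1 and 34. Control 1 had 2 reads of each U5 form, and the controls had 0 reads of U1, U4 and U6. No read named either U5 form alone. Of the 6 spliceosomal RNAs, 3 had enough reads to be tested and 0 were called by edgeR, as for all features. Among other stable RNAs, the U3 snoRNA snR17a had 3 and 59 reads, SCR1 of the signal recognition particle 0 and 24, NME1 of RNase MRP 4 and 16, and RPR1 of RNase P 1 and 10. The second U3 gene, snR17b, had 0 and 7, and the telomerase RNA TLC1 had 0 and 4. Of these 6, RPR1 had 1 read in control 2 and the others had 0 in both controls; 3 were tested and 0 called by edgeR.

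Names of spliceosome protein genes were nearly empty. Of 15 U2 snRNP protein names, 2 and 10 had reads in the Seb1-HTP libraries, with 2 and 78 reads in all. CUS1, a U2 snRNP protein gene, held 56 of these 78, in 3 intervals with a median of 17 nt, the shortest length held. Of 7 Sm protein names, 2 and 4 had reads (2 and 6 in all), and of 11 names of branch site and remodelling proteins 3 and 8 had reads (5 and 35 in all). The controls had 0 reads on these 3 lists. Of their members, CUS1 and BRR2, which encodes a helicase that unwinds U4 from U6, had enough reads for the test, and 0 were called.

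By pattern over the 4 libraries, the features most like LSR1 were DBP2, RAD2, SEC12, SHE10 and PGM3. Likeness was the distance between centred log2(RPM + 10) values of single-name reads, among 98 features with at least 50 reads. The distance was 3.995 for DBP2, an RNA helicase gene, and from 4.82 to 5.09 for the others. In the Seb1-HTP libraries DBP2 had 153 and 296 reads, beside 1 and 0 in controls 1 and 2. RAD2, encoding a DNA repair nuclease, had 129 and 142, SEC12, of vesicle formation at the endoplasmic reticulum, had 128 and 130, SHE10 had 62 and 170, and PGM3, a phosphoglucomutase gene, had 60 and 163, each with 0 in the controls. Their reads were short as well, with medians in Seb1-HTP 1 and 2 of 39 and 39 nt for DBP2, 36 and 36 nt for RAD2, 26 and 26 nt for SEC12, 38 and 38 nt for SHE10, and 35 and 34 nt for PGM3. On the plus strand lay 28.8% and 25.3% of DBP2 reads, 100% and 99.3% of RAD2 and 0.781% and 0.769% of SEC12. For SHE10 it was 0% and 0.588%, and for PGM3 0% and 23.9%. SEC12 reads came from 14 and 9 distinct intervals. Whether these reads are transcripts of the named genes was not tested.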

How the data were processed

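Reads of 4 CRAC libraries were analysed as read counts per mapped interval. Per the file headers, the deposited counts come from Counters 1.4.2. Novoalign 2.0.4 and the build ASM294v2 are named in the submitters' processing notes. The records carry S. cerevisiae chromosomes and names, and the sources used here give neither that genome's release nor whether repeated reads were collapsed, so intervals and floors take in counting error alone. Records naming no feature (0.334% to 4.90% of reads) were left out of library totals, which were 4579, 45339, 268030 and 231656 named reads in controls 1 and 2 and Seb1-HTP 1 and 2. The headers count 35034, 202528, 3452998 and 3946246 reads for these libraries in the same order. The records hold 4654, 45491, 273840 and 243591 reads. Shares were not adjusted for how many reads entered the records.

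Shares have 95% Wilson intervals, and a count of 0 is read as at most 3 reads. Per-base rates need 100 reads, or 20 distinct intervals (chromosome, start, end and strand, each once with the differences of its most read record). Features with at least 10 single-name reads were tested with edgeR 4.0.16 in R 4.3.3, scaled by library totals, with Benjamini-Hochberg adjustment at 0.05, and the script was tested on simulated data. Alternatives included DESeq2 1.42.0. Named features are LSR1, fixed lists of spliceosomal and stable RNAs, protein names with at least 10 reads in a library, and the 5 features most like LSR1; BRR2 falls outside this rule and was chosen after its values were seen. The members and lists were chosen with earlier results of these data known. The registers, blocks and deletion runs were defined after seeing the data. Python 3.11.15 was used.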

Additional observations from a re-analysis of the deposited data

How the results depend on the processing

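The direction of LSR1 was higher with Seb1-HTP under every alternative run. It was called with a read counted for every feature it names (6.40 on the log2 scale), with DESeq2 (9.07) and without control 1 (14.9, a fitted value against a library at 0 reads and so no bound), and leaving out 1 library at a time gave 5.02 to 14.9; the lowest value of all, 2.85 (adjusted p = 0.313 by edgeR), came from distinct intervals; a fit against 1 control or 1 Seb1-HTP library takes the lone library to vary like the others. The count of called features, 0, became 10 with each feature named and 1 with DESeq2, and ran from 0 to 93 without 1 library, the 93 without Seb1-HTP 1. With the replicate number as a block (replicate block), LSR1 had 8.31 (adjusted p = 0.113 by edgeR) and 0 features were called. Deviations of same-numbered libraries had a correlation of 0.0861 across 559 features. As 438 of these had 0 reads in both controls, this value cannot tell whether the libraries were paired. The number was not taken as a pairing. As distinct intervals, the mean of the Seb1-HTP libraries moved from 2.31% to 1.02% for the U2 share, from 38 to 35.8 nt for the median length, from 42.8% to 9.11% for the leading start, from 21.8% to 1.65% for the leading end, and from 86.8% to 61.7% (first record 58.5%) for reads with a substitution. The mean U2 share of the Seb1-HTP libraries was 11.9% without rRNA, rDNA and tRNA in the total. On this total control 1 had 3 of 449 reads (0.668%) and control 2 had 0 of 2078. Within 2 nt the leading start held 44.7% and the leading end 38.7%, and with reads of 25 nt or more the leading start held 42.5%. Bases with a difference rate of at least 5% were 9 by reads and 14 by distinct intervals. The cause of these moves was not tested. Leaving out LSR1 records with a second name kept the median at 38 nt. Control 1 is the shallowest library and limits what a low control share can show.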
